A study of Mus musculus with 6 samples.

Results

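The Bcl2 family apoptosis genes described here are 10 genes of the mitochondrial cell death pathway, taken by name from a count table of 27179 genes: Bcl2, Bcl2l1, Mcl1, Bax, Bak1, Bcl2l11, Bbc3, Pmaip1, Bid and Bmf. All 10 were found in the table by their Entrez identifiers, and all 10 passed the filter on low counts. The samples were mouse embryonic stem cells on the ES-E14TG2a background, from which poly(A)-selected RNA was sequenced. One group carried FLAG-tagged Trim71 with the amino-acid change R783H (3 libraries), and the other carried FLAG-tagged Trim71 without that change, named WT in the labels (3 libraries). Both groups thus carried the epitope tag, and both were grown on gelatin in serum-containing medium with LIF, the GSK3 inhibitor CHIR99021 and the MEK inhibitor PD0325901. Trim71 is an RNA-binding protein of stem cells, and the series concerns a change in it that is linked to hydrocephalus. Whether replicates A, B and C are clones, cultures or library preparations is not given in the labels, so the tests measure only the spread between these libraries, which may be technical.

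Proteins of the Bcl2 family decide whether the outer mitochondrial membrane is opened to release cytochrome c, after which caspases are activated and the cell dies. Bax and Bak1 form the pore, Bcl2, Bcl2l1 (Bcl-xL) and Mcl1 bind and restrain them, and the BH3-only proteins Bcl2l11 (Bim), Bbc3 (Puma), Pmaip1 (Noxa), Bid and Bmf either engage the pore formers or neutralise the restraining proteins. Pluripotent stem cells are known for a low threshold to this form of death. Many of these proteins are regulated by cleavage, binding and turnover, which mRNA counts do not show.

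To let the reader see the DNA upstream of the genes that the results turn on, promoter windows are shown of Bak1, Bcl2l11 and Bbc3, whose mRNAs were lower in R783H, of Bmf, whose mRNA was higher, and of Bax, whose difference was not called once transcript length and GC content were corrected for together. Each window runs from 250 bases before to 50 bases after a RefSeq start site on GRCm38.p6, 5′ to 3′ on the gene's strand. RefSeq windows were matched for 9 of the 10 genes, with 16 windows in all; Pmaip1 was not matched. Capitals mark GTAAACA on either strand, a core sequence that forkhead factors such as Foxo1 and Foxo3 recognise, or CACGTG, the E-box that Myc with Max recognises.
Bak1: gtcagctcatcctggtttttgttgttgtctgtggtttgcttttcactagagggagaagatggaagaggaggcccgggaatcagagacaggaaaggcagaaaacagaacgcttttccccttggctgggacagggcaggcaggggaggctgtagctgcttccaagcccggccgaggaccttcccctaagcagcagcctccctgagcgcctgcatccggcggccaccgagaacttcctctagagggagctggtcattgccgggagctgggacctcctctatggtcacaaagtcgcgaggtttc
Bcl2l11: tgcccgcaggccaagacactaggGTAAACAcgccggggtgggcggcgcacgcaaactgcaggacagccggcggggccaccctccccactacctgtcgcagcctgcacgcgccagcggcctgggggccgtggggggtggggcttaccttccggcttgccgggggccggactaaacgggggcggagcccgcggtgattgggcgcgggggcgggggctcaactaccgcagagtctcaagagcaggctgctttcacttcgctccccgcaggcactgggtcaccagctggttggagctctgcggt
Bbc3: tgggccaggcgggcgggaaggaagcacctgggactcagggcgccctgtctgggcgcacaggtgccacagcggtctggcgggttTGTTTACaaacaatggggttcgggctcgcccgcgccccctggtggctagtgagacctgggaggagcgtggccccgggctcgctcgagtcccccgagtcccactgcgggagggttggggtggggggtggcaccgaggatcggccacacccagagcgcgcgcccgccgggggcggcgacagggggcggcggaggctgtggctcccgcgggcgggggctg
Bax: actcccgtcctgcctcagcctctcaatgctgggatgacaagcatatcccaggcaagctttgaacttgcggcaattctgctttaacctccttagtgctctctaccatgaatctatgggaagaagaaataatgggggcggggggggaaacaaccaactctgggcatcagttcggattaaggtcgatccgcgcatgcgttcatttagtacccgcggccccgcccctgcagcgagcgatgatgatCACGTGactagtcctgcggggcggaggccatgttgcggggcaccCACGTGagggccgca
Bmf: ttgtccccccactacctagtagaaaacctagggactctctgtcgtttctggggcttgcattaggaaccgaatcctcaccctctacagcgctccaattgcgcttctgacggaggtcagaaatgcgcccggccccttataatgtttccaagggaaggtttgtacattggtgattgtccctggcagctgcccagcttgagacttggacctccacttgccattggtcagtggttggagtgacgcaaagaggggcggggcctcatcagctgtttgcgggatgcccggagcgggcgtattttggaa

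The Bak1 window (chr17:27028578-27028877, minus strand) held neither core, and no match to the other motifs searched on both strands, which were the GC box GGGCGG, the CCAAT box, the TATA box and the p53 half-site. The upstream Bcl2l11 window (chr2:128125788-128126087, plus strand) held GTAAACA at position -227 from the start site. The middle of the 3 Bbc3 windows (chr7:16310011-16310310, plus strand) held it on the opposite strand at position -167, and this window overlaps the most downstream one. Of all 32851 promoter windows of this length, 3.65% held GTAAACA. The Bax window (chr7:45466849-45467148, minus strand) held CACGTG at 2 places, one on each side of the start site, and one p53 half-site at position -201. CACGTG was found in 7.15% of all windows and the p53 half-site in 8.36%. Among the windows not shown, the most downstream Bbc3 window (chr7:16310181-16310480) held CACGTG at position -64, and the most downstream Bmf window (chr2:118544538-118544837) held a p53 half-site at position -213. Of the 3 Bmf windows, the most upstream (chr2:118549637-118549936, minus strand) held neither core, but 3 matches to CCAAT, which 37.4% of all windows hold, and 1 to GGGCGG, which 35.7% hold. The TATA box, searched as TATAAA, was in none of the 16 windows, against 13.6% of all windows. Such matches describe letters in these windows and do not show that a factor binds there.

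Total counts per library were 20894277 to 29079670, with all R783H libraries deeper than all WT libraries. R783H B stood apart from its group: a chi-square of its counts per degree of freedom was 8.76 against A and 9.59 against C, while the other pairs within a group gave 1.78 to 3.63. Counts were scaled with TMM factors and are given as CPM (counts scaled to a common library size), on which scale 3 counts correspond to 0.0998 to 0.149 CPM. The 7 markers of embryonic stem cells all passed the filter on low counts, with summed CPM of 5768 to 5843 in R783H and 6095 to 6181 in WT. By log2 fold change, Pou5f1 (-0.21), Nanog (-0.23) and Zfp42 (-0.36) were called lower and Tfcp2l1 (0.17) higher. Sox2, Klf4 and Esrrb were not called. Of 7 fibroblast markers 4 passed the filter, with summed CPM of 3.17 to 4.16 in R783H and 3.98 to 4.65 in WT. Of these 4, Thy1 fell (0.194 ± 0.111 CPM in R783H, 1.31 ± 0.0743 in WT, log2 fold change -2.74), and Col1a1, Col1a2 and Pdgfra were not called, the last 2 with all R783H libraries above WT. Of 9 markers of differentiating cells 5 passed it, and their summed CPM was 57.3 to 66.4 in R783H against 98.6 to 108 in WT, most of it from Tubb3 (48.8 ± 5.63 against 84.99 ± 2.58 CPM, SD, n = 3 each). Its members went both ways: Tubb3 (log2 fold change -0.80) and T (-1.89) fell, Gata4 (1.08) and Sox17 (1.29) rose, and Gata6 gave 0.87 without a call. Adjusted p of the called genes of these last lists ran from 1.2e-07 (T) to 0.00218 (Sox17) by edgeR. The other 7 markers of these last lists had at most 9 counts in any library, and none was at 0 in all libraries, though Postn and Neurog2 were at 0 in all WT libraries. The part of these cell types in the results was not tested. In bulk RNA, fewer cells of a type and less RNA per cell cannot be told apart. Trim71 itself stood at 144 ± 12.8 CPM in R783H and 140.5 ± 16.4 in WT (SD, n = 3 each). This level does not check the labels, since counts per gene do not show which sequence the reads carry.

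How abundant the 10 mRNAs were relative to each other was read from CPM per kb of the longest annotated transcript, a level corrected for length. In WT the order was Bax (297 ± 14.2 CPM per kb, SD, n = 3), Mcl1 (105 ± 4.72), Bid (74.2 ± 1.43), Bak1 (60.4 ± 2.49), Bcl2l1 (34.4 ± 0.647) and Bbc3 (12.1 ± 0.411). Below these stood Pmaip1 (1.84 ± 0.284), Bcl2l11 (1.14 ± 0.136), Bmf (0.994 ± 0.161) and Bcl2 (0.0902 ± 0.0143). Among neighbours in this WT order, the libraries overlapped only between Bcl2l11 and Bmf. In R783H the 7 most abundant genes kept their order, with Bax at 248 ± 19.6 and Pmaip1 at 2.36 ± 0.417 CPM per kb. Bmf (1.75 ± 0.0588) then stood above Bcl2l11 (0.641 ± 0.0149) without overlap. Ranked by mean level per length among all tested genes with a known transcript length, Bax was at the 98.8th percentile, Mcl1 at the 94.9th and Bcl2 at the 0.487th. A gene's longest transcript need not be the one these cells use, so the order rests on that choice of length.

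**Figure D1:**
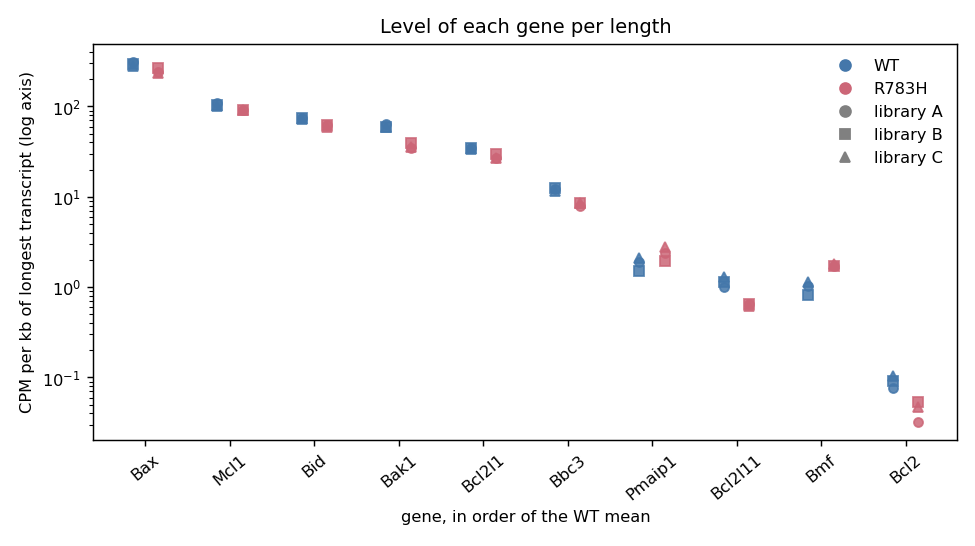
CPM per kb of the longest transcript for each gene on a log axis, in the order of the WT mean, with WT in blue, R783H in red and a symbol for each library. The genes span from 0.0902 (Bcl2) to 297 (Bax) in WT, and Bmf and Bcl2l11 change places between the groups.

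R783H was compared with WT to ask which of these mRNAs differ between cells with and without the change in Trim71. Of the 10 mRNAs 8 were lower in R783H: all 3 anti-apoptotic genes among them, both pore formers and the BH3-only genes Bcl2l11, Bbc3 and Bid. Bmf alone was called higher, and Pmaip1 was higher on average without passing the test. By edgeR's quasi-likelihood test with adjusted p under 0.05 over all tested genes, 9 of the 10 were thus called, where 64.5% of 14199 tested genes were called. Lower calls made up 8 of 10, against 30.9% of all tested genes, and higher calls 1 of 10, against 33.5%. The median log2 fold change of the 10 genes was -0.29, against 0.03 over all tested genes. A fall of at least 1.5-fold was called for 3 of the 10 (Bcl2, Bak1 and Bcl2l11), where 9.54% of all genes fell by that much, and such a rise for 1 (Bmf), against 15.1%. CPM of the groups did not overlap for 9 of the 10, against 68.1% of all tested genes. Of these 9 genes, 8 had all R783H libraries below all WT libraries, against 33.1% of all tested genes, and 1 had them above, against 35%. With an offset for transcript length and GC content, described below, 7 of the 10 were called lower and 2 higher. Of the 13763 genes tested in that fit, 5114 were called lower and 4190 higher.

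**Figure D2:**
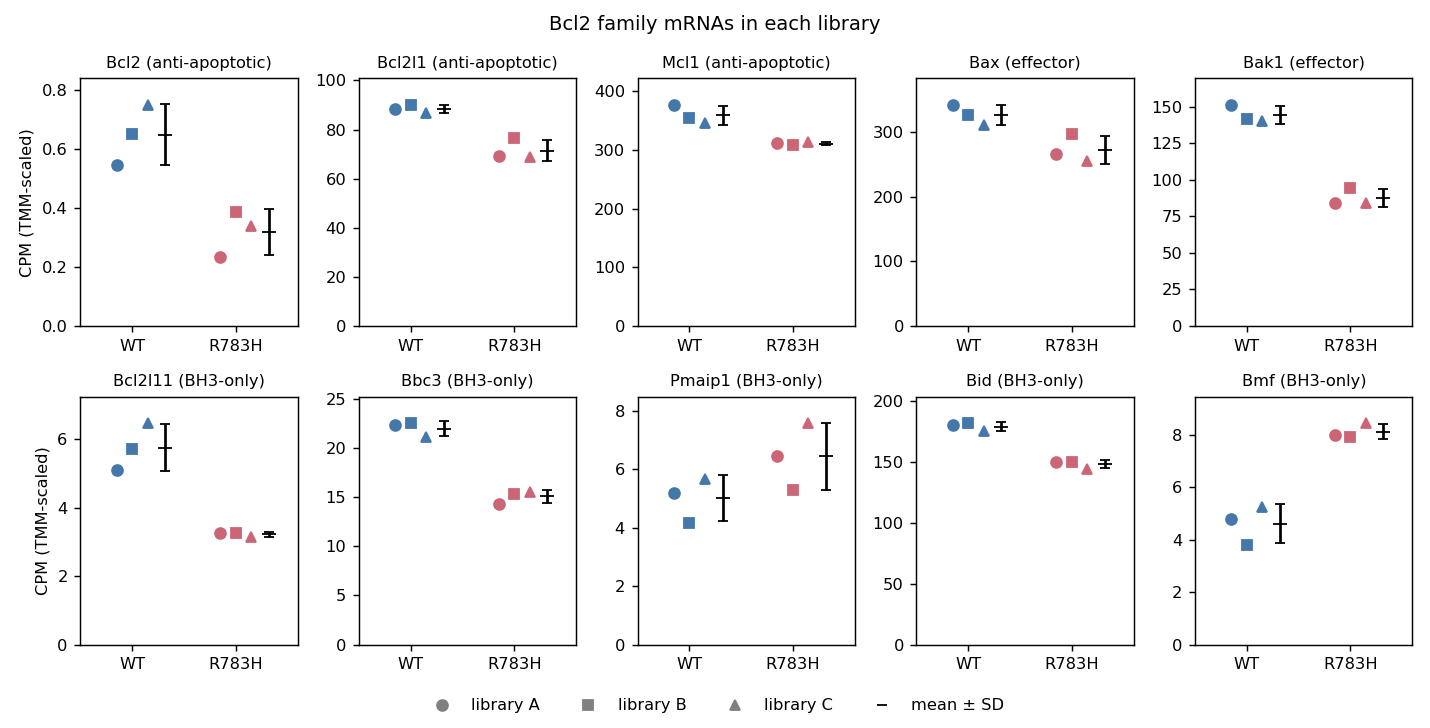
CPM of each gene in each library, with the mean ± SD of the 3 libraries of a group beside the points; each panel starts at 0 and has its own scale. The groups are apart for every gene but Pmaip1, and R783H is the higher group only for Bmf and Pmaip1.

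Among the 3 anti-apoptotic members, Mcl1 was the most abundant. It made up 75.2% to 77.4% of their summed CPM per kb in R783H and 74.7% to 76.2% in WT. Mcl1 (chr3:95656944-95663179, RefSeq gene span on GRCm38.p6, as for the genes that follow), a short-lived protein on which early embryonic cells depend, measured 312, 309 and 313 CPM in R783H and 377, 355 and 346 in WT, where values of single libraries are given in the order A, B, C. The 3 R783H libraries lay closely together below the lowest WT library, and the log2 fold change was -0.21 (SE 0.04, adjusted p = 0.00153), a fall by 13.3% on the fitted scale. Bcl2l1 (chr2:152758732-152833803), which holds Bax away from the membrane, measured 69.1, 76.5 and 68.8 CPM in R783H against 88.2, 90.0 and 86.7 in WT. R783H B was the highest R783H library and still lay below every WT library. Its log2 fold change was -0.31 (SE 0.05, adjusted p = 0.00041).

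Bcl2 (chr1:106538176-106714290), the founding member of the family, was close to the limit of detection, with 7, 11 and 10 counts in R783H and 11, 16 and 16 counts in WT. In CPM these were 0.233, 0.388 and 0.338 against 0.545, 0.652 and 0.75. The R783H libraries were all lower, and the fitted log2 fold change was -1.02, the largest in size of the 10, but with an SE of 0.32 and a 95% interval from -1.72 to -0.32 (adjusted p = 0.0153). The call was lost without R783H A (log2 fold change -0.85, adjusted p = 0.0573), without WT C (-0.92, adjusted p = 0.0651) and with DESeq2 (-1.05, adjusted p = 0.0755). Over 15 alternatives its adjusted p ran from 0.00347 to 0.0755 by edgeR, DESeq2 or limma.

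Both pore formers were lower in R783H, by 39.4% (Bak1) and 16.4% (Bax) on the fitted scale; that these falls differ was not tested. Bak1 (chr17:27019812-27028627), which resides on mitochondria in healthy cells, measured 83.8, 94.2 and 84.1 CPM in R783H and 151, 142 and 140 in WT. The gap between the groups was wide beside the spread within them, and the log2 fold change was -0.72 (SE 0.06, adjusted p = 1.1e-06). Bax (chr7:45461695-45466903), which shuttles between cytosol and mitochondria, measured 266, 297 and 255 CPM in R783H against 342, 326 and 311 in WT. Every R783H library was again below every WT library, with a log2 fold change of -0.26 (SE 0.06, adjusted p = 0.00262). Within a library the ratio of Bax to Bak1, per length, was 6.77 ± 0.162 in R783H and 4.91 ± 0.0952 in WT (SD, n = 3 each), and the groups did not overlap. The ratio of Bak1 to Mcl1 was 0.385 to 0.437 in R783H and 0.571 to 0.581 in WT, again with no overlap. R783H B was the highest R783H library for Bax, Bak1 and Bcl2l1, and without it the log2 fold changes were -0.35, -0.80 and -0.38. The ratios of Bax to Bcl2l1 (8.67 to 9.06 in R783H, 8.37 to 9.05 in WT) overlapped between the groups. These ratios were taken without the offset for length and GC content, so they depend on this choice. With the offset, the log2 fold changes were 0.01 (Bax), -0.26 (Bcl2l1), -0.65 (Bak1) and -0.27 (Mcl1).

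The fall of Bax was not called once transcript length and GC content were taken into account. Fold changes over all genes followed transcript length: their median was -0.16 among the shortest 10% of genes, up to 1251 nt, and 0.31 among the longest 10%, above 6690 nt. The longest Bax transcript measures 1100 nt with a GC content of 63.5%, the shortest of the 10 genes, and that of Bcl2 measures 7191 nt, the longest. With an offset fitted to length and GC content, the log2 fold change of Bax was 0.01 (adjusted p = 0.729 by edgeR). The same offset gave -0.65 for Bak1 (adjusted p = 2.7e-09 by edgeR) and moved Bbc3 from -0.55 to -0.26 (adjusted p = 0.00213 by edgeR), where it was still called. The longest Bbc3 transcript measures 1814 nt, with the highest GC content of the 10 genes, 65.2%. Bcl2l11, with a long transcript of 5036 nt, went to -1.001, Bcl2 to -1.29 and Mcl1 to -0.27. The offset takes length and GC content together, so their separate parts in these shifts were not told apart. Whether the trend with length comes from the cells or from the libraries was not tested.

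Among the 5 BH3-only members, Bid was by far the most abundant. It made up 81.3% to 83.1% of their summed CPM per kb in R783H and 81.8% to 82.6% in WT. Bid (chr6:120893119-120917062), which caspase-8 cleaves to link death receptors to mitochondria, measured 150, 150 and 145 CPM in R783H and 181, 182 and 175 in WT. The groups were narrow and apart, with a log2 fold change of -0.27 (SE 0.04, adjusted p = 1.6e-04). Bbc3 (chr7:16308398-16318334), a p53 target whose protein binds all the restraining members, measured 14.3, 15.3 and 15.5 CPM in R783H against 22.3, 22.5 and 21.1 in WT. It was lower in every R783H library, with a log2 fold change of -0.55 (SE 0.07, adjusted p = 3.1e-05).

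Bcl2l11 and Bmf, whose proteins are both tied to the cytoskeleton in healthy cells, moved in opposite directions. Bcl2l11 (chr2:128126038-128162547) measured 3.26, 3.28 and 3.14 CPM in R783H and 5.10, 5.71 and 6.47 in WT, and the R783H libraries were the tighter group, all below WT. Its log2 fold change was -0.84 (SE 0.12, adjusted p = 1.2e-04), a fall by 44.0%. Bmf (chr2:118528757-118549686) measured 8.02, 7.93 and 8.44 CPM in R783H against 4.80, 3.79 and 5.25 in WT, with every R783H library above every WT library. Its log2 fold change was 0.82 (SE 0.12, adjusted p = 1.2e-04), a 1.77-fold rise. Per length, the ratio of Bmf to Bcl2l11 within a library was 2.62 to 2.92 in R783H and 0.721 to 1.02 in WT. Of the windows shown earlier, that of Bcl2l11 holds the forkhead core and that of Bmf does not. The other windows of these genes do not hold it either. Of the Bbc3 windows, only the one shown holds it. No window of Bcl2, Bcl2l1, Mcl1, Bax, Bak1 or Bid, which were also called lower, holds it. Only 3.65% of all windows hold this core, so most lack it. Any part of it in these changes was not tested.

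Pmaip1, a p53 target whose protein mainly binds Mcl1, was the member with no call. It measured 6.45, 5.29 and 7.56 CPM in R783H and 5.20, 4.16 and 5.67 in WT. R783H B lay within the WT range, and the values within each group spread more, relative to their mean, than those of any other gene here but Bcl2 and, in WT, Bmf. The log2 fold change was 0.37 (SE 0.15), had a 95% interval from 0.03 to 0.71 and missed the threshold (adjusted p = 0.0545 by edgeR). It was positive under all 16 alternatives and passed the test under 7 of them, with adjusted p from 0.00607 to 0.233. Among these were the fits without R783H B (0.47, adjusted p = 0.00607 by edgeR) and without WT C (0.47, adjusted p = 0.0394 by edgeR). The 3 classical p53 targets among these genes thus gave -0.26 (Bax), -0.55 (Bbc3) and 0.37 (Pmaip1), and with the length and GC offset 0.01 (not called), -0.26 and 0.34.

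**Figure D3:**
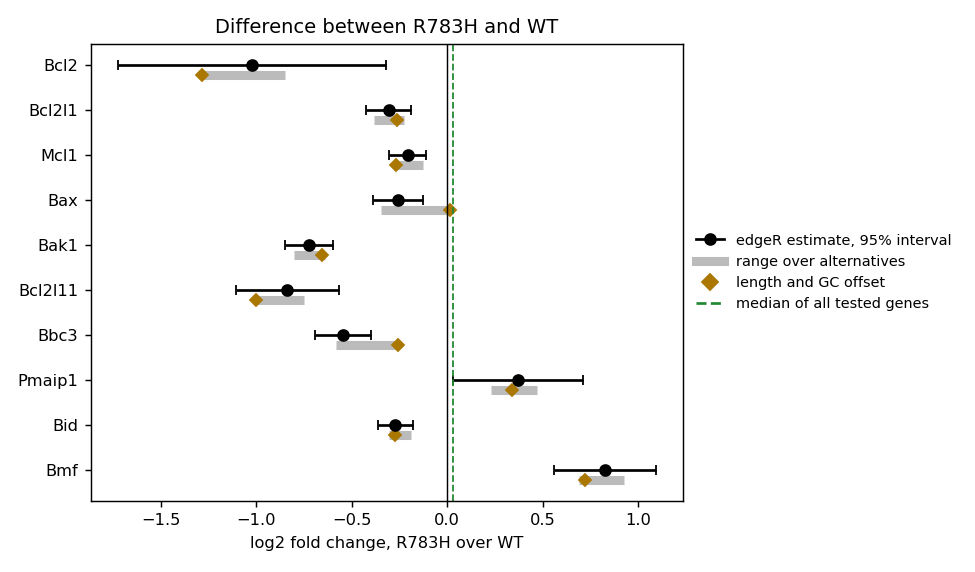
Log2 fold change of R783H over WT for each gene, as the edgeR estimate with its 95% interval (black), the range over the alternative settings (grey bar) and the value with the length and GC offset (diamond); the dashed line is the median of all tested genes, 0.03. Bax moves from -0.26 to 0.01 with the offset, while Bak1, Bcl2l11 and Bmf stay away from 0.

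Summed per length, the restraining genes stood at 119 ± 1.06 CPM per kb in R783H and 140 ± 4.90 in WT, the pore formers at 285 ± 21.997 against 357 ± 16.5, and the BH3-only genes at 74.5 ± 0.744 against 90.3 ± 1.37 (SD, n = 3 each). All 3 sums were lower in each R783H library than in any WT library. The ratio of pore formers to restraining genes was 2.26 to 2.58 in R783H and 2.53 to 2.59 in WT, so that the groups overlapped. These sums rest mainly on Bax, Mcl1 and Bid. Bax gave most of the pore-former sum, and since its fall was not called with the length and GC offset, that sum and its ratio depend on this choice.

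Of the genes 4 share exon sequence with a neighbour, and the use of strand in counting is not given in the sources used here. Of the annotated exon sequence of Bak1, 614 of 2407 nt (25.5%) overlap Ggnbp1 on the opposite strand. Ggnbp1 was far below Bak1, at 5.50 ± 0.769 CPM in R783H and 3.88 ± 0.395 in WT (SD, n = 3 each), and it rose (log2 fold change 0.50, adjusted p = 0.00829 by edgeR). Bid shares 628 of 3550 nt (17.7%) with Bcl2l13 on the opposite strand, and Bcl2l13 gave -0.05 (SE 0.04, adjusted p = 0.302 by edgeR), or -0.31 with the length and GC offset. Bax shares 12.2% of its exon sequence with Gm45808 on the same strand, and Bcl2 6.09% with D630008O14Rik on the opposite strand. No other transcript had a stretch of at least 100 nt with 98% identity to any of the 10 genes. Some other pathway genes given with values also overlap exons of neighbours. These are Bcl2l2, Huwe1 and Ripk1 on the same strand, and Bad, Bnip3, Endog, Dnm1l, Ddit3, Ripk1 and Foxo1 on the opposite strand. How much of their sequence is shared was not computed.

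Other genes of the death pathway changed in both directions. Of 55 tested genes in 7 lists, 25 were called higher and 19 lower in R783H. Of all tested genes, 33.5% were called higher and 30.9% lower. With the length and GC offset, 16 of the 55 were called higher and 21 lower, so the balance between directions depends on this choice. Of 10 tested genes among 15 other Bcl2 family genes, 4 rose and 3 fell, with a median of 0.02. Bnip3, a mitochondrial protein of mitophagy and the hypoxia response, stood at 48.8 ± 7.41 CPM in R783H and 13.3 ± 1.43 in WT and rose by 1.88 on the log2 scale (SE 0.12), though it has near-identical copies among which reads may be split. Hrk, a BH3-only gene of neurons, rose by 0.75 (SE 0.17), and Bok, a pore former of its own kind, changed by -0.65 (SE 0.08). Bcl2l2 (Bcl-w), named here after its values were seen because it too is anti-apoptotic, rose by 0.47 (SE 0.07). It stood at 4.33 ± 0.223 CPM per kb in R783H and 3.13 ± 0.121 in WT. The 5 genes of this list not tested were Bcl2a1a, Bcl2a1b, Bcl2a1d, Bcl2l10 and Bcl2l15.

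Downstream of the pore, 3 of 8 apoptosome and caspase genes rose and 4 fell (median -0.24). Cycs, which encodes cytochrome c, stood at 1.98 ± 0.301 CPM in R783H and 5.44 ± 1.32 in WT and fell by 1.46 on the log2 scale (SE 0.19), but 3 near-identical transcripts of other genes make its count uncertain. Casp6, an executioner caspase, changed by -0.50 (SE 0.15) and was not called without WT A (-0.36, adjusted p = 0.0605 by edgeR). Of 7 tested genes among 8 for caspase inhibitors (IAPs) and their antagonists, 4 rose and 2 fell (median 0.22). With the length and GC offset 2 rose and 3 fell (median -0.05). Birc5 (survivin), an IAP that also serves in mitosis, stood at 116 ± 6.17 CPM in R783H and 170.5 ± 8.21 in WT and fell by 0.56 on the log2 scale (SE 0.05). Birc3 rose by 0.54 (SE 0.13) and Xiap, the direct inhibitor of caspases, by 0.30 (SE 0.09) with overlapping libraries. Xiap was not called without R783H A (0.24), without R783H C (0.22) or without WT A (0.26), and with the length and GC offset it gave -0.05.

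At the mitochondrion, 2 of 9 genes for partners of Bax and Bak1 rose and 6 fell (median -0.21). Dnm1l, the fission GTPase Drp1, rose by 0.69 (SE 0.08), whereas Endog, a mitochondrial nuclease, changed by -0.82 (SE 0.09) and Vdac1, a channel of the outer membrane, by -0.35 (SE 0.05). Of 7 tested genes among 8 for Mcl1 protein turnover, 5 rose and 1 fell (median 0.20), while with RLE size factors 3 rose and 1 fell. Huwe1, a ubiquitin ligase for Mcl1, rose by 0.38 (SE 0.04), Usp9x, a deubiquitinase that acts on Mcl1, by 0.35 (SE 0.08), and the kinase gene Gsk3b by 0.27 (SE 0.08). Under the offset for length and GC content, none of the 7 was called at an adjusted p under 0.05 by edgeR, and these 3 gave -0.06, -0.08 and -0.03. Gsk3b was also not called without R783H C (0.20) or without WT B (0.22). Usp9x, Vdac1 and Birc3 have near-identical copies elsewhere, which makes their counts uncertain.

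Among 8 transcription factor genes known to act on BH3-only genes, 4 rose and 2 fell (median 0.22). Myc changed by -1.71 (SE 0.06) and Trp53, which encodes p53, by -0.46 (SE 0.06), from 425 ± 5.67 to 309 ± 26.5 CPM (SD, n = 3). Ddit3 (Chop), a factor of the stress response, rose by 0.78 (SE 0.09). Foxo1 and Foxo3, chosen here after their values were seen because their core motif was searched, rose by 0.44 (SE 0.05) and 0.31 (SE 0.05). With correction for length and GC content they gave 0.12 and 0.09, and Foxo3 was not called. In the death receptor branch that leads to Bid, 3 of 6 tested genes (of 7) rose and 1 fell (median 0.13). Cflar, a decoy of caspase-8 that shares near-identical stretches with other genes, rose by 1.16 (SE 0.11), Tnfrsf10b, a receptor for Trail, rose by 0.48 (SE 0.07) and Ripk1 changed by -0.50 (SE 0.07). Adjusted p values of the named genes called in these lists ran from 1.2e-08 to 0.0134 by edgeR's quasi-likelihood test.

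**Figure D4:**
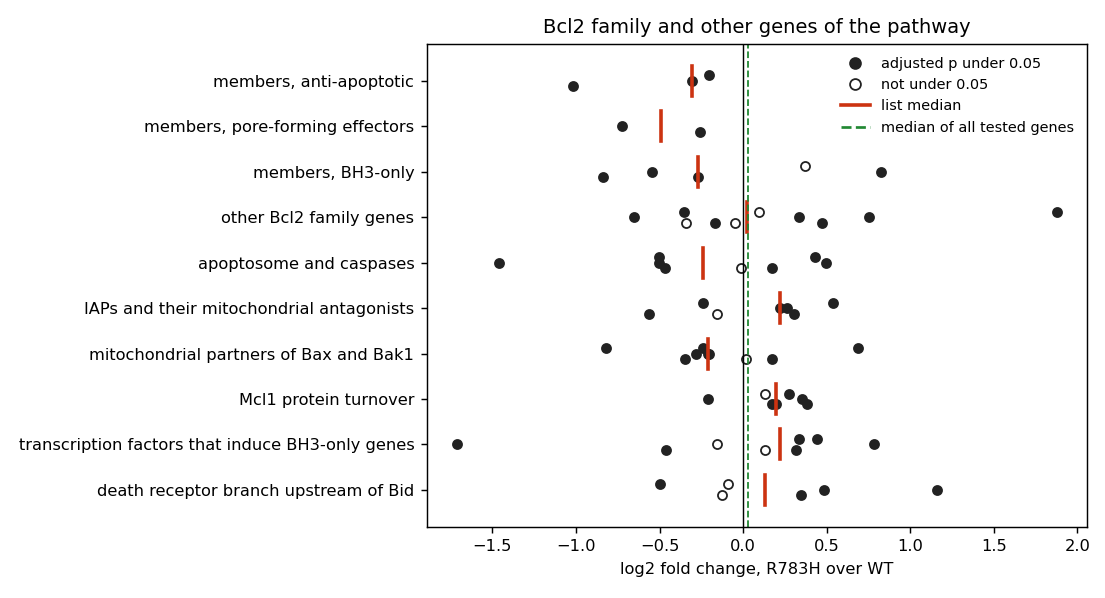
Log2 fold change of R783H over WT for each tested gene (points; filled where the adjusted p is under 0.05) of the 3 groups of Bcl2 family members and the 7 lists of other pathway genes, with each list's median (red) and the median of all tested genes (dashed, 0.03). All but 2 of the 10 member genes lie to the left of 0, while the other lists hold genes on both sides.

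Across the 6 libraries, the genes averaging at least 10 CPM whose log2 CPM followed Mcl1 most closely were Ccdc85c (Pearson r 0.998), Ska3 (0.995) and Kat14 (0.992), out of 9113 compared. For Bcl2 they were Nab2 (0.998), Cyp51 (0.995) and Ndufs5-ps (0.993), out of 9114. With 6 libraries in 2 groups the points share their groups, so these values are a description, and those for Bcl2 rest on few counts.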

How the data were processed

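The authors deposited 1 table of whole-number read counts per gene, with a column per library and Entrez identifiers, taken here as raw counts. The submitters' processing notes name CASAVA 1.4, HISAT2, SAMtools and the build mm10, with no role or order; the counting tool, annotation and use of strand are not given in the sources used here. Libraries were grouped by their titles, and 0 columns were left unassigned. Symbols came from RefSeq (GRCm38.p6), which matched 25275 of 27179 identifiers. Transcript lengths, GC content and exons came from GENCODE M21, also on GRCm38, and 96.9% of tested genes had a length.

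Computed here with R 4.3.3: genes were kept with edgeR 4.0.16 filterByExpr (minimum count 10, minimum total 15), which left 14199, and were scaled with TMM factors and tested by edgeR's quasi-likelihood test on group alone, two-sided. P-values were adjusted by Benjamini and Hochberg's method over all 14199 genes, and calls were made at an adjusted p under 0.05. The SE is the log2 fold change divided by the square root of F. Alternatives used DESeq2 1.42.0, limma 3.58.1 (voom), other scalings and filters, equal depth (20894277 counts), the replicate letter as a block, each library left out, and a spline offset (5 degrees of freedom each) on log length and GC content. From each list of other genes, the text names at most 3 called genes, those of largest absolute change among genes averaging at least 1 CPM; all 10 members and Trim71 are named, and likeness used log2 CPM with a prior count of 2. One gene that this rule names is not reported here. The members and lists were chosen with earlier results of these data known.

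Tested on simulated counts of 14199 genes for this comparison, the fit recovered 92 of 100 genes changed 2-fold and 77 of 100 changed 1.5-fold, with 17 false calls, and made 5 calls with no gene changed. Only these genes were changed, in both directions, and no trend with length or GC content was built in. In the data 64.5% of tested genes were called and fold changes followed length, so these rates need not hold there. Reads carry no molecular identifiers in these sources, so the floor of 3 counts covers counting error only.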

Additional observations from a re-analysis of the deposited data

How the results depend on the processing

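Of the 10 Bcl2 family genes, 8 to 10 were called under the 16 alternatives, with 8161 to 9882 of all genes and 37 to 44 of the other pathway genes; the fits without 1 library gave the same ranges. Bcl2l1, Mcl1, Bak1, Bcl2l11, Bbc3, Bid and Bmf kept their direction and call under all 16. With the length and GC offset, the log2 fold changes that turned were Bax 0.0147, Trim71 -0.269, Xiap -0.0537, Huwe1 -0.0630, Usp9x -0.0776 and Gsk3b -0.0317. With the offset and the replicate block together they were 0.0144, -0.268, -0.0541, -0.0636, -0.0778 and -0.0320, and of these genes only Trim71 was called in both fits (adjusted p = 0.00214 and 1.8e-04 by edgeR). The cause was not tested. Pmaip1 passed the test with library size alone (0.45), no filter (0.38), the replicate block (0.36), the offset (0.34), the offset with the block (0.33), without R783H B (0.47) and without WT C (0.47). Its lowest value was 0.23, without R783H C. Bcl2 was left out where 10 counts were required in every library. Same-letter libraries of the groups correlated with r = -0.07, 0.0068 and 0.09 across genes in their deviations from the group means, and not every library correlated best with its own letter, so the letters were not taken as pairs. With the replicate block 10 of the 10 genes were called, with 9260 of all genes and 43 of the other pathway genes. Scaling by library size alone moved the median of all genes from 0.03 to 0.11, and calls over all genes from 4761 higher and 4391 lower to 5673 and 3603. Depth limits Bcl2 most, at 7 to 16 counts.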
